A study of Mus musculus with 18 samples.

Results

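The genes described here encode 8 subunits of the voltage-gated sodium channel: the pore-forming alpha subunits Scn1a, Scn2a1, Scn3a, Scn8a and Scn9a, and the beta subunits Scn2b, Scn3b and Scn4b. They were taken by name from a table of 37310 genes, with RNA sequencing counts from mouse cortical neurons in culture. The 8 names held 9 entries, because Scn8a was listed under 2 gene identifiers. All 9 entries had enough counts to be tested. Neurons carried a knockout of Fmr1 (KO), which encodes FMRP, a regulator of mRNA translation, or were wild type (WT). After 7 days in culture both genotypes received JQ1, an inhibitor of the BET bromodomain proteins that bind acetylated histones, or the vehicle DMSO for 24 h. The 4 groups of 3 libraries were KO neurons in JQ1, WT neurons in JQ1, KO neurons in DMSO and WT neurons in DMSO. The labels give neither the age, sex and strain of the animals nor the kind of knockout allele, and do not say whether libraries of a group came from separate cultures, so p-values measure only the spread between these libraries. The 6 samples treated with THZ1 were not analysed here.

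Voltage-gated sodium channels open when the membrane depolarises and carry the inward current that starts and propagates action potentials. A channel consists of a large alpha subunit, which holds the pore and the voltage sensors, and smaller beta subunits, which have a single membrane-spanning segment and an immunoglobulin-like outer domain. Beta subunits shift channel gating, help to bring channels to the cell surface and act in cell adhesion. In the rodent forebrain Scn2a1 and Scn3a are the early alpha subunits, Scn8a takes over at the axon initial segment as neurons mature, and Scn1a is best known from inhibitory interneurons.

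Library totals ran from 21643592 to 134110850 gene counts, and levels are given as CPM, the counts of a gene per 1000000 counts of its library, after TMM scaling (trimmed mean of M-values). Fmr1 lay between 21.5 and 34.6 CPM in the 6 KO libraries, against 119.1 to 153.5 CPM in the 6 WT libraries. Summed levels of 10 pan-neuronal marker genes were 6565 to 7855 CPM across the libraries, against 237.8 to 707.4 CPM for 8 astrocyte markers and 6.01 to 9.76 CPM for 6 microglia markers. Of the microglia markers, P2ry12 was at 0 in all KO libraries in JQ1. Both KO libraries numbered 3 stood apart from the other KO libraries, with 4.34 and 4.29 CPM of Xist where every other library had at least 230.5 CPM. Without these 2 libraries no gene of the 8 gained or lost a call in any comparison. In RNA from whole cultures, fewer cells of a type and less RNA per cell cannot be told apart.

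Between genotypes, Scn2b was the gene of the 8 that passed the test in both treatments, at a higher level in KO neurons, and Scn3a was called lower in KO neurons in JQ1 by a narrow margin. With JQ1, Scn3a and Scn2b fell in both genotypes, and the sparsely counted Scn9a and Scn4b fell in WT neurons. Scn2a1, Scn8a, Scn1a and Scn3b were not called in any of these comparisons. In DMSO, 1 of the 9 entries was higher in KO than in WT and 0 were lower, where 15.0% of all 15433 tested genes were called, 7.21% higher and 7.76% lower. In JQ1, 1 was higher and 1 lower in KO than in WT, beside 8.97% of all genes called, 4.85% higher and 4.13% lower. Given JQ1, WT neurons had 0 entries higher and 4 lower than in DMSO, beside 55.1% of all genes called, 25.9% higher and 29.3% lower. In KO neurons JQ1 left 0 higher and 2 lower, beside 57.1% called, 27.7% higher and 29.4% lower. With 9 entries, these counts do not set the subunit genes apart from other genes, and 2 of the 4 entries lower in WT neurons, Scn9a and Scn4b, were kept for testing through their DMSO libraries. The median log2 change of the 9 entries was -0.03 for KO over WT in DMSO, 0.04 for KO over WT in JQ1, -0.23 for JQ1 over DMSO in WT and -0.17 for JQ1 over DMSO in KO, beside medians over all genes of -0.01, -0.00, -0.00 and 0.00 in the same order. All changes are relative to the bulk of genes. When libraries were scaled on spike-in sequences, the all-gene median shifted by -0.82, -0.12, -0.63 and 0.067 in that order, so that a rise smaller than such a shift turns into a fall, among them that of Scn2b in KO neurons in DMSO (-0.46). Under that scaling the higher Scn2b of KO neurons in JQ1 (0.18) and the falls of Scn2b (-0.23) and Scn3a (-0.26) with JQ1 in KO neurons kept their direction but not their call.

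**Figure D1:**
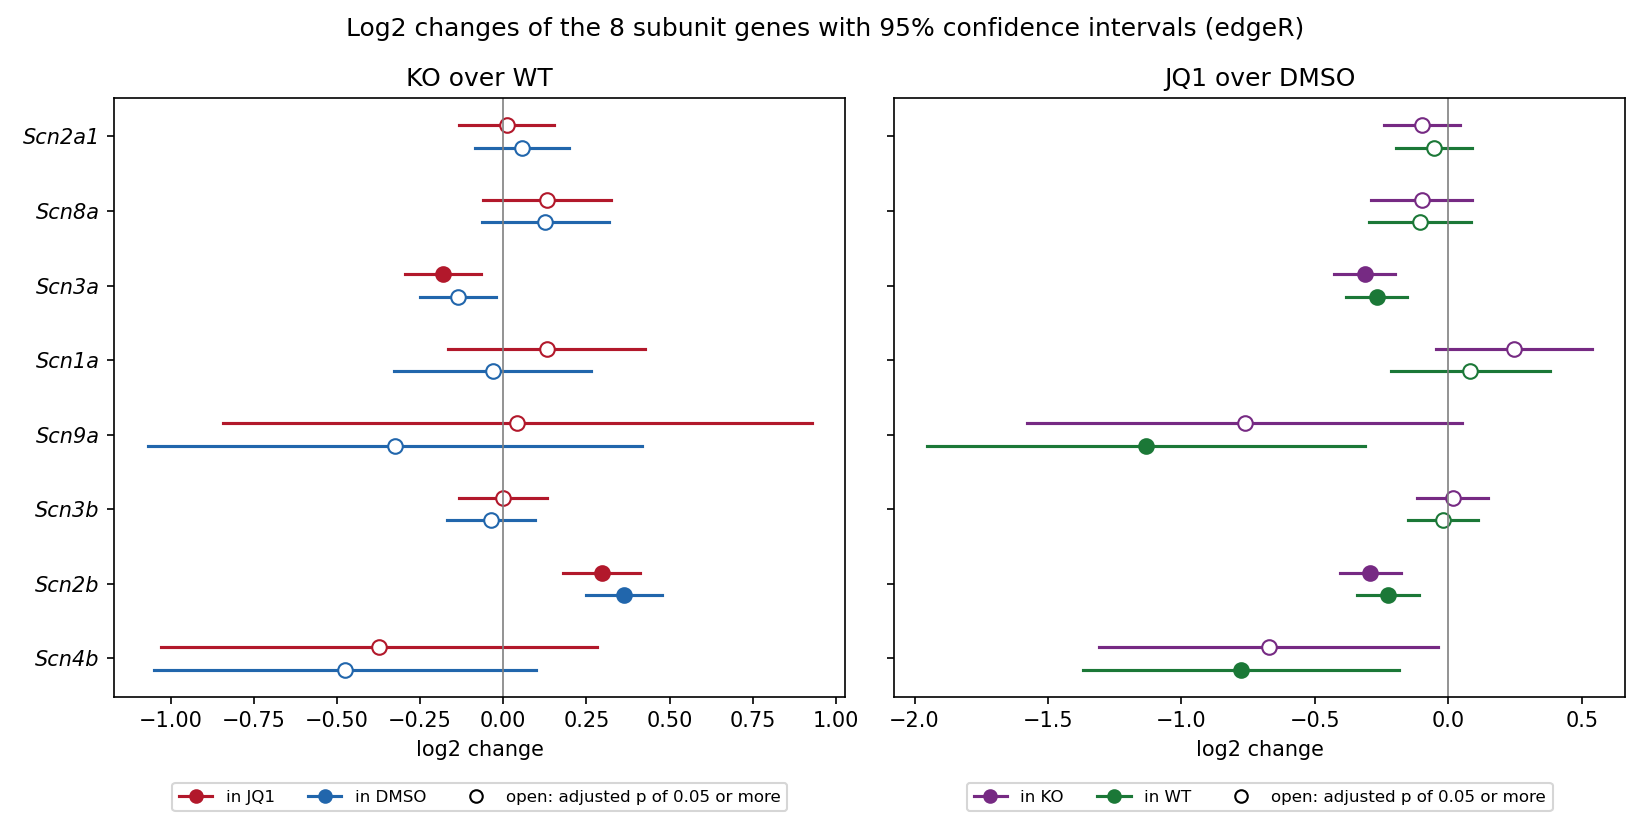
Log2 changes of the 8 subunit genes by edgeR, KO over WT at left and JQ1 over DMSO at right, with 95% confidence intervals. Filled points passed an adjusted p of 0.05, open points did not. With TMM scaling Scn2b lies right of 0 in both genotype comparisons (with spike-in scaling it is -0.46 in DMSO) and left of 0 in both JQ1 comparisons, while the intervals of Scn9a and Scn4b are wider than those of the other genes.

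Compared per length of transcript, as RPKM, which divides CPM by the exon length in kilobases (taken from a later annotation and so approximate), Scn2a1 was the most abundant alpha subunit. In WT neurons in DMSO it averaged 20.7 RPKM, followed by Scn3a at 8.74, Scn8a at 6.35, Scn1a at 2.28 and Scn9a at 0.0392 RPKM. These 5 levels did not overlap between genes over the 3 libraries. Scn8a and Scn3a overlapped in both groups of KO neurons. In JQ1 the KO libraries had 5.85 to 7.02 RPKM of Scn8a and 6.07 to 6.601 RPKM of Scn3a, and in DMSO they had 6.10 to 7.75 RPKM of Scn8a and 7.68 to 8.44 RPKM of Scn3a. Among the beta subunits Scn3b was ahead in all groups, at mean levels of 60.6 to 62.2 RPKM, followed by Scn2b at 5.19 to 7.80 RPKM and Scn4b at 0.0374 to 0.0856 RPKM. The summed level of the 5 alpha subunits was 467 ± 16.0 CPM for KO in JQ1, 464 ± 17.5 CPM for WT in JQ1, 507 ± 43.3 CPM for KO in DMSO and 498 ± 24.7 CPM for WT in DMSO (SD, n = 3 each). The libraries overlapped between treatments in KO (449.9 to 481.8 CPM in JQ1, 464.9 to 551.4 CPM in DMSO). In WT they narrowly did not (444.9 to 479.0 CPM in JQ1, 479.6 to 526.0 CPM in DMSO), as was true of 62.6% of all single genes. No test was made of the sum.

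**Figure D2:**
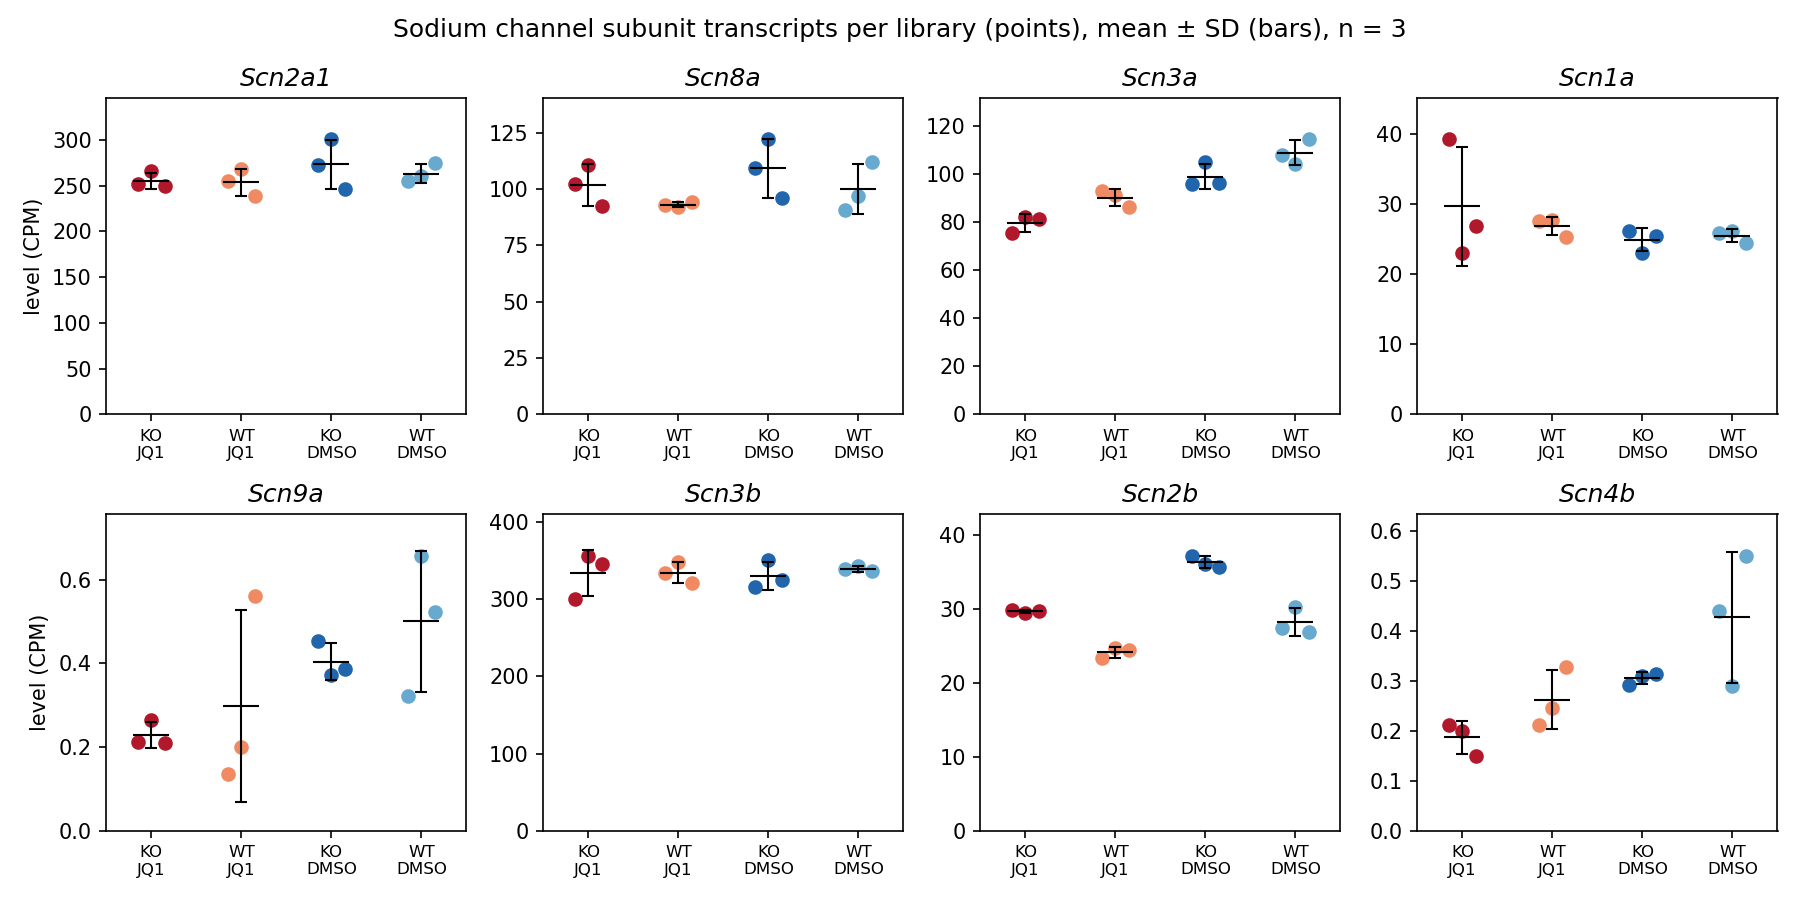
Level of each subunit gene in each library, in CPM on a linear axis from 0 with its own scale for each gene, for KO in JQ1, WT in JQ1, KO in DMSO and WT in DMSO. Points are libraries, and bars are the mean ± SD of 3 libraries. For Scn2b the KO libraries lie above the WT libraries in each treatment, and Scn2a1, Scn8a and Scn3b show groups that lie over each other.

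Scn2a1, the alpha subunit of the early axon initial segment in excitatory neurons, had 251.4, 265.6 and 249.4 CPM in KO neurons in JQ1 and 254.7, 267.7 and 238.1 CPM in WT neurons in JQ1. In DMSO it had 272.9, 300.7 and 246.8 CPM in KO neurons and 254.6, 260.3 and 274.4 CPM in WT neurons. The groups overlapped in all 4 comparisons, with 1 KO library in DMSO above all others. The log2 change ran from -0.10 (JQ1 over DMSO in KO, 95% interval -0.24 to 0.044) to 0.06 (KO over WT in DMSO, interval -0.086 to 0.20), and the smallest adjusted p was 0.221. JQ1 over DMSO in KO passed the test without replicate 3 of KO in DMSO (-0.18, adjusted p = 0.0237) and with upper-quartile scaling (-0.17, adjusted p = 0.0354).

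Scn8a, the alpha subunit of nodes of Ranvier and of the mature axon initial segment, had 102.4, 110.7 and 92.3 CPM in KO neurons in JQ1 and 92.8, 92.1 and 94.3 CPM in WT neurons in JQ1. In DMSO its levels were 109.3, 122.2 and 96.1 CPM in KO neurons and 91.0, 97.1 and 112.2 CPM in WT neurons. KO libraries numbered 2 were the highest of their groups, and the groups overlapped in all 4 comparisons. KO over WT was 0.13 on the log2 scale in each treatment (SE 0.0891 in DMSO and 0.0894 in JQ1, adjusted p = 0.362 and 0.373), and JQ1 over DMSO was -0.11 in WT (adjusted p = 0.338) and -0.10 in KO (adjusted p = 0.355). The other entry named Scn8a held 0.733 to 2.26 CPM and was not called in any comparison. How the reads of Scn8a divide between the 2 entries was not tested.

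Scn3a, an alpha subunit that is most abundant in the embryonic and newborn brain, was lower in both JQ1 groups than in DMSO. It had 75.6, 82.2 and 81.2 CPM in KO neurons in JQ1 and 93.1, 91.2 and 86.5 CPM in WT neurons in JQ1. In DMSO its levels were 95.7, 105.1 and 96.2 CPM in KO neurons and 107.8, 104.3 and 114.6 CPM in WT neurons. Neither genotype's JQ1 libraries overlapped its DMSO libraries, as was true of 62.6% of all genes in WT and 60.7% in KO. JQ1 over DMSO was -0.31 in KO neurons (SE 0.0535, adjusted p = 0.000191) and -0.27 in WT neurons (SE 0.0537, adjusted p = 0.00072). Between genotypes Scn3a was -0.18 (KO over WT, SE 0.0538) in JQ1, where the groups did not overlap, as in 27.0% of all genes. Its adjusted p of 0.0499 lay at the threshold: it was lost on leaving out any library other than replicate 3 of WT in JQ1 or replicate 2 or 3 of KO in DMSO (adjusted p 0.0472 to 0.188 over all 12), with edgeR's RLE scaling (0.0573), without a filter on low counts (0.0622) and with the JQ1 groups fitted alone (0.0907). In DMSO the value was -0.14 (SE 0.0534, adjusted p = 0.0948), with 1 KO library above the lowest WT library.

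Set against the counts of Scn2a1 in the same library, a ratio that no scaling between libraries can move, Scn3a stood lowest in KO neurons in JQ1. The count of Scn3a was 30.1, 31.0 and 32.5% of that of Scn2a1 in KO neurons in JQ1, and 36.5, 34.1 and 36.3% in WT neurons in JQ1. The ratio was 35.1, 35.0 and 39.0% in KO neurons in DMSO and 42.3, 40.1 and 41.8% in WT neurons in DMSO. The groups did not overlap in any of the 4 comparisons. The ratio to Scn2a1 was lower without overlap for 14.9% of all other tested genes for KO over WT in DMSO, 12.3% for KO over WT in JQ1, 25.5% for JQ1 over DMSO in WT and 22.3% for JQ1 over DMSO in KO. The difference of mean log2 ratios was -0.19 for KO over WT in each treatment and -0.22 for JQ1 over DMSO in each genotype, beside pooled SDs of 0.0493 to 0.0751. These comparisons share groups of libraries, and the ratio was chosen with values known, so no test is given. As a share of the summed RPKM of the 5 alpha subunits, Scn3a made up 18.0 ± 1.02% for KO in JQ1, 20.4 ± 0.449% for WT in JQ1, 20.6 ± 0.966% for KO in DMSO and 23.0 ± 0.567% for WT in DMSO (SD, n = 3 each).

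**Figure D3:**
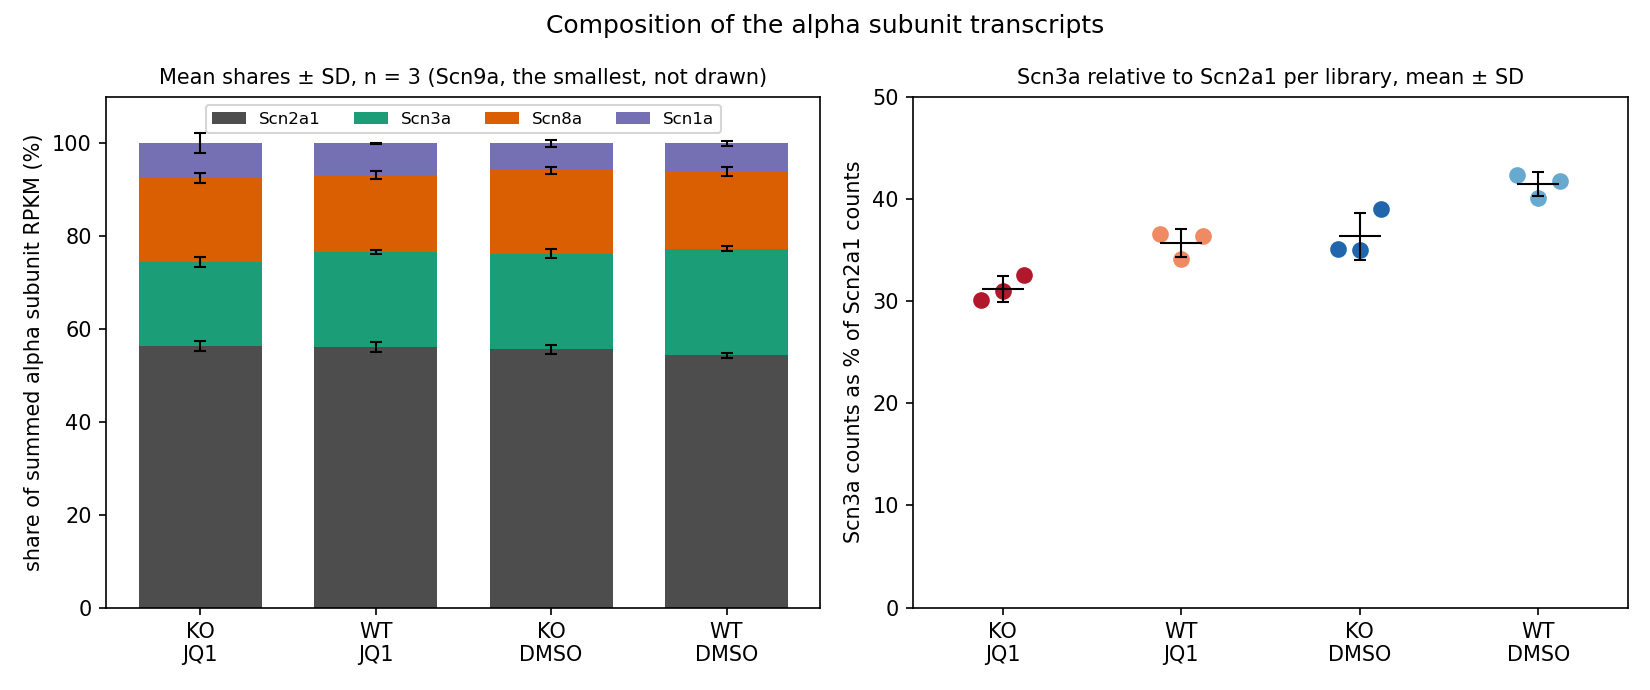
Left, mean shares (± SD, n = 3) of 4 alpha subunits in the summed alpha subunit RPKM, in percent as stacked bars. Right, Scn3a counts as a percentage of Scn2a1 counts, with libraries as points and the mean ± SD as bars, for KO in JQ1, WT in JQ1, KO in DMSO and WT in DMSO. The Scn3a share of summed RPKM is 18.0% for KO in JQ1 and 23.0% for WT in DMSO, and the ratio of Scn3a to Scn2a1 counts lies between 30.1 and 32.5% for KO in JQ1 and between 40.1 and 42.3% for WT in DMSO.

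Scn1a, the alpha subunit whose loss in people causes Dravet syndrome, had 39.2, 23.0 and 26.8 CPM in KO neurons in JQ1 and 27.5, 27.7 and 25.3 CPM in WT neurons in JQ1. In DMSO it had 26.2, 23.1 and 25.5 CPM in KO neurons and 25.8, 26.1 and 24.4 CPM in WT neurons. Replicate 1 of KO in JQ1 was above all 11 other libraries, which lay between 23.0 and 27.7 CPM. JQ1 over DMSO in KO was 0.25 (SE 0.137, adjusted p = 0.14), and it was -0.00 without that library. The fit with a block for each pair of JQ1 and DMSO libraries of the same genotype and replicate number called it (0.22, adjusted p = 0.0371), as did the fit without replicate 2 of KO in JQ1 (0.41, adjusted p = 0.00985). In the other 3 comparisons the log2 change ran from -0.03 to 0.13, and Scn1a was not called.

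Scn9a, an alpha subunit known above all from nociceptive sensory neurons, was represented by 7 to 26 counts a library. Its levels were 0.211, 0.265 and 0.209 CPM in KO neurons in JQ1 and 0.135, 0.200 and 0.560 CPM in WT neurons in JQ1. In DMSO they were 0.454, 0.371 and 0.387 CPM in KO neurons and 0.322, 0.658 and 0.523 CPM in WT neurons. Replicate 3 of WT in JQ1, the shallowest library, was above 2 of the WT libraries in DMSO, so the WT groups overlapped. The KO groups did not, as was true of 60.7% of all genes. JQ1 over DMSO was -1.13 in WT (SE 0.383, adjusted p = 0.0214), a call that was lost with DESeq2 (-0.98, adjusted p = 0.0748) and without replicate 1 or 2 of WT in JQ1 or replicate 2 or 3 of WT in DMSO (adjusted p 0.0558 to 0.142). In KO the change was -0.76 (SE 0.38, adjusted p = 0.101), and it was called with the KO groups fitted alone (-0.77, adjusted p = 0.0292) and without replicate 3 of WT in JQ1 (-0.76, adjusted p = 0.0423). Scn9a reached the level that the filter on low counts asks for in all 6 DMSO libraries and in 2 of the 6 JQ1 libraries, so it was kept through the DMSO groups, and no support is drawn from its fall. It overlaps the antisense gene Gm13629 over 180 bases, and without strand information their reads cannot be told apart, although Gm13629 held 61 counts over all 12 libraries.

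Scn2b, the beta subunit that is joined to the alpha subunit by a disulfide bond and raises the number of channels at the cell surface, was higher in KO than in WT and lower in JQ1 than in DMSO. It had 29.8, 29.5 and 29.7 CPM in KO neurons in JQ1 and 23.3, 24.7 and 24.4 CPM in WT neurons in JQ1. In DMSO it had 37.3, 36.1 and 35.7 CPM in KO neurons and 27.5, 30.3 and 26.9 CPM in WT neurons. In each of the 4 comparisons the groups did not overlap, as was the case for 37.6% of all genes between genotypes in DMSO, 27.0% between genotypes in JQ1, 62.6% between treatments in WT and 60.7% between treatments in KO. KO over WT was 0.36 in DMSO (SE 0.0536, 95% interval 0.25 to 0.48, adjusted p = 0.00141), a 1.29-fold difference, and 0.30 in JQ1 (SE 0.0542, interval 0.18 to 0.41, adjusted p = 0.00583), a 1.23-fold difference. With spike-in scaling the value in DMSO was -0.46, which is 0.37 above the median of all genes under that scaling. The authors' deposited table gives 0.35 on the log2 scale (SE 0.0664, adjusted p = 6.63e-06) for KO over WT. JQ1 over DMSO was -0.29 in KO (SE 0.053, adjusted p = 0.000314) and -0.23 in WT (SE 0.0548, adjusted p = 0.00297). All 4 calls held in each of the 12 fits with a library left out. With TMM scaling, KO neurons in JQ1 had 29.7 ± 0.143 CPM and WT neurons in DMSO 28.3 ± 1.84 CPM (SD, n = 3 each), with libraries that overlapped. No test was made of this pair of groups. With spike-in scaling JQ1 over DMSO in KO was -0.23 (adjusted p = 0.796) and KO over WT in DMSO -0.46 (adjusted p = 0.145). Neither value passed the test, and together they place KO neurons in JQ1 below WT neurons in DMSO. The spike-in sequences made up 0.118 to 0.348% of the counts of a library. In the KO libraries in DMSO they held 187296, 107995 and 129889 counts, beside 53564043, 64000804 and 53174615 gene counts.

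Several cell type markers differed between the genotypes together with Scn2b. In DMSO, 7 of 11 tested inhibitory neuron markers were higher in KO neurons and 0 lower, beside 7.21% of all genes higher and 7.76% lower, with a summed level of 702.3 to 773.5 CPM in KO and 507.4 to 630.2 CPM in WT. Of these markers Pvalb had 0 to 3 counts in every library. Pan-neuronal markers were higher for 4 and lower for 1 of 10 (7392 to 7855 CPM in KO, 6794 to 7213 CPM in WT), and excitatory markers were higher for 3 and lower for 1 of 7 (1291 to 1376 CPM in KO, 1182 to 1306 CPM in WT). Astrocyte markers were higher for 0 and lower for 2 of 8 (376.1 to 536.5 CPM in KO, 575.5 to 707.4 CPM in WT), and progenitor and proliferation markers were higher for 0 and lower for 3 of 8 (356.7 to 417.0 CPM in KO, 439.8 to 470.4 CPM in WT). Fibroblast and vascular markers were higher for 1 and lower for 2 of 7 (12.5 to 17.3 CPM in KO, 28.5 to 36.7 CPM in WT). In JQ1, 4 of the 11 inhibitory markers were higher in KO and 0 lower (614.3 to 717.3 CPM in KO, 440.1 to 660.1 CPM in WT), beside 4.85% of all genes higher and 4.13% lower. Progenitor and proliferation markers were higher for 0 and lower for 4 of 8 in JQ1 (281.4 to 367.4 CPM in KO, 418.6 to 482.0 CPM in WT), and astrocyte markers were higher for 0 and lower for 1 of 8 (237.8 to 403.6 CPM in KO, 402.2 to 560.9 CPM in WT). Pan-neuronal markers in JQ1 were higher for 1 and lower for 1 of 10 (6825 to 7368 CPM in KO, 6565 to 6667 CPM in WT), excitatory markers were higher for 2 and lower for 1 of 7 (1300 to 1425 CPM in KO, 1181 to 1313 CPM in WT), and fibroblast and vascular markers were higher for 0 and lower for 1 of 7 (8.89 to 11.3 CPM in KO, 15.9 to 20.97 CPM in WT). Microglia and oligodendrocyte lineage markers had 0 called in either treatment. The part of these cell type markers in the level of Scn2b was not tested.

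Scn2b lies directly before Scn4b on chromosome 9 in the RefSeq annotation, with no protein-coding gene between them, and the level per length of Scn2b was many times that of Scn4b. The 250 bases upstream of each start site are printed for this neighbouring pair (RefSeq, GRCm38.p6, plus strand, 5′ to 3′), with every CG in capitals. The windows are chr9:45117626-45117875 for Scn2b and chr9:45138374-45138623 for Scn4b.
Scn2b: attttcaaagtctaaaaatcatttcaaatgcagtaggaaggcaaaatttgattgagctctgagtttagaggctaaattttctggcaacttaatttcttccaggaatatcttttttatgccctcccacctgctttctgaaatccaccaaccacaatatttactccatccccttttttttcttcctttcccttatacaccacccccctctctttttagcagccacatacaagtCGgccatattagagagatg
Scn4b: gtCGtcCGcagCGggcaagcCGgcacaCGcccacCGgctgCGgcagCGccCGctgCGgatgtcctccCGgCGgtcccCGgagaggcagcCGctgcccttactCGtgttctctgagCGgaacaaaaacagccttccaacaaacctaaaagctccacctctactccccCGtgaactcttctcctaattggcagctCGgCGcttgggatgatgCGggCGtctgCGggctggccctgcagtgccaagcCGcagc
The Scn2b window holds 1 CG and has a GC content of 38.4%, against 23 CG and 66% in the Scn4b window, where the median of 32851 windows of that length is 6 CG. Of all windows, 7.87% hold fewer CG than that of Scn2b and 86.7% fewer than that of Scn4b. Both strands were searched for 4 motifs: the TATA box TATAAA, found in 12.4% of all windows, the CCAAT box, found in 33.8%, the GC box GGGCGG, found in 32.7%, and the E-box CACGTG, found in 6.02%. The Scn2b window holds none of these and the Scn4b window holds the CCAAT box. Windows were held for 6 of the 8 genes, not for Scn3a and Scn3b. Scn8a has 2 upstream windows (chromosome 15), with 30 and 9 CG, and Scn2a1 has 2 (chromosome 2), with 2 and 9 CG.

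Scn3b, a beta subunit that binds the alpha subunit without a disulfide bond, was the most abundant subunit per length and the most even. It had 301.0, 357.1 and 345.5 CPM in KO neurons in JQ1 and 335.0, 348.4 and 321.0 CPM in WT neurons in JQ1. In DMSO its levels were 316.1, 351.4 and 324.9 CPM in KO neurons and 339.3, 343.0 and 336.5 CPM in WT neurons. The groups overlapped in all comparisons, and the lowest and the highest value belong to the same group, KO in JQ1. The 95% intervals of its log2 changes were -0.17 to 0.095 for KO over WT in DMSO, -0.13 to 0.13 for KO over WT in JQ1, -0.15 to 0.11 for JQ1 over DMSO in WT and -0.12 to 0.15 for JQ1 over DMSO in KO. Of the summed RPKM of the 3 beta subunits, Scn2b made up 9.46 ± 0.83% for KO in JQ1, 7.80 ± 0.334% for WT in JQ1, 11.4 ± 0.698% for KO in DMSO and 8.88 ± 0.452% for WT in DMSO (SD, n = 3 each), nearly all the rest being Scn3b.

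Scn4b, the beta subunit linked to resurgent sodium current in Purkinje cells, was close to the limit of detection, with 5 to 32 counts a library. It had 0.211, 0.199 and 0.150 CPM in KO neurons in JQ1 and 0.212, 0.246 and 0.327 CPM in WT neurons in JQ1. In DMSO it had 0.291, 0.309 and 0.313 CPM in KO neurons and 0.440, 0.290 and 0.550 CPM in WT neurons. The KO libraries did not overlap between the treatments, as was true of 60.7% of all genes, and 1 WT library in DMSO lay below 1 WT library in JQ1. JQ1 over DMSO was -0.78 in WT (SE 0.276, adjusted p = 0.0274) and -0.67 in KO (SE 0.297, adjusted p = 0.0681), where upper-quartile scaling called it (-0.74, adjusted p = 0.0459). The call in WT was lost without a filter on low counts (adjusted p = 0.067), with DESeq2 (0.139), with the block for pairs of the same genotype and replicate number (-0.63, adjusted p = 0.0904) and without replicate 1 or 2 of WT in JQ1 or replicate 1 or 3 of WT in DMSO (adjusted p 0.0732 to 0.201). In JQ1 the KO libraries all lay below the WT libraries, where 27.0% of all genes had no overlap in either direction, yet KO over WT was -0.37 with an adjusted p of 0.514. The level that the filter on low counts asks for was reached in 0 KO and 2 WT libraries in JQ1 and in all 6 DMSO libraries. Scn4b was thus kept through the DMSO groups, and no support is drawn from its fall.

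Whether JQ1 acted to a different extent in KO and in WT neurons was asked by testing the difference of the 2 responses. No gene of the 8 was called, and none of all 15433 genes was (0.00%), while 355 had an unadjusted p under 0.05 and DESeq2 also called 0. The difference, KO minus WT, ran from -0.07 for Scn2b (SE 0.0762) to 0.37 for Scn9a (SE 0.545) among the 8 genes on the log2 scale. The interval of Scn2b was -0.23 to 0.10 and that of Scn9a -0.80 to 1.54, and a missed threshold does not show that the responses were alike. Astrocyte markers were lower with JQ1 as well, 4 of 8 in KO (237.8 to 403.6 CPM in JQ1, 376.1 to 536.5 CPM in DMSO) and 5 of 8 in WT neurons (402.2 to 560.9 CPM in JQ1, 575.5 to 707.4 CPM in DMSO). Microglia markers were lower for 3 of 5 tested in KO (sums of 6.95 to 8.13 CPM in JQ1, 7.97 to 9.76 CPM in DMSO) and for 3 of 5 in WT (6.01 to 6.73 CPM in JQ1, 8.31 to 8.97 CPM in DMSO). Fibroblast and vascular markers were lower for 4 of 7 in KO (8.89 to 11.3 CPM in JQ1, 12.5 to 17.3 CPM in DMSO) and for 4 of 7 in WT (15.9 to 20.97 CPM in JQ1, 28.5 to 36.7 CPM in DMSO). Of these lists, the microglia marker Itgam had at most 0.0934 CPM in JQ1 and at least 0.248 CPM in DMSO. The fibroblast marker Lum had at most 0.187 CPM in JQ1 and at least 0.340 CPM in DMSO. The filter on low counts asks for 0.218 CPM, so both were kept through the DMSO groups, and no support is drawn from them. Oligodendrocyte lineage markers were higher for 0 and lower for 3 of 8 in KO (147.8 to 200.6 CPM in JQ1, 160.8 to 213.2 CPM in DMSO) and higher for 1 and lower for 3 of 8 in WT (178.9 to 187.0 CPM in JQ1, 145.7 to 207.8 CPM in DMSO). Neuronal markers also moved with JQ1, in both directions. Pan-neuronal markers were higher for 4 and lower for 5 of 10 in each genotype, and excitatory markers higher for 2 and lower for 2 of 7 in each. Inhibitory markers were higher for 0 and lower for 3 of 11 in KO, and higher for 1 and lower for 2 in WT. Progenitor and proliferation markers were higher for 2 and lower for 1 of 8 in KO, and higher for 1 and lower for 1 in WT. Of all genes, 27.7% were higher and 29.4% lower with JQ1 in KO, and 25.9% and 29.3% in WT. The part of these markers in the changes of the subunit genes was not tested.

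Among 5 other sodium channel genes, 3 were tested, and the well counted one, Nalcn, fell with JQ1 in both genotypes. Nalcn, which encodes the sodium leak channel that sets the resting potential, had 14.3, 15.5 and 14.4 CPM in KO neurons in JQ1 and 13.3, 13.5 and 16.8 CPM in WT neurons in JQ1. In DMSO its levels were 52.7, 56.7 and 53.1 CPM in KO neurons and 51.4, 51.6 and 58.4 CPM in WT neurons. JQ1 over DMSO was -1.87 in KO (SE 0.0805, adjusted p = 1.06e-09) and -1.92 in WT (SE 0.0817, adjusted p = 1.28e-09), with a wide gap between the groups. Scn7a, the alpha-like channel of glia and sensory neurons, was -2.38 in KO (adjusted p = 0.000227) and -2.21 in WT (adjusted p = 0.000994), and Scn11a, an alpha subunit of sensory neurons, was -2.53 in KO (adjusted p = 6.68e-06) and -2.05 in WT (adjusted p = 4.55e-05). Scn7a and Scn11a held at most 42 counts in a library. Scn7a reached the level that the filter asks for in 1 of 3 libraries of each JQ1 group and Scn11a in 0, against all 6 DMSO libraries for each gene, so both were kept through the DMSO groups and no support is drawn from their falls. Scn4a and Scn10a, at 0 to 4 counts, were not tested. None of the 3 tested genes was called between the genotypes.

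**Figure D4:**
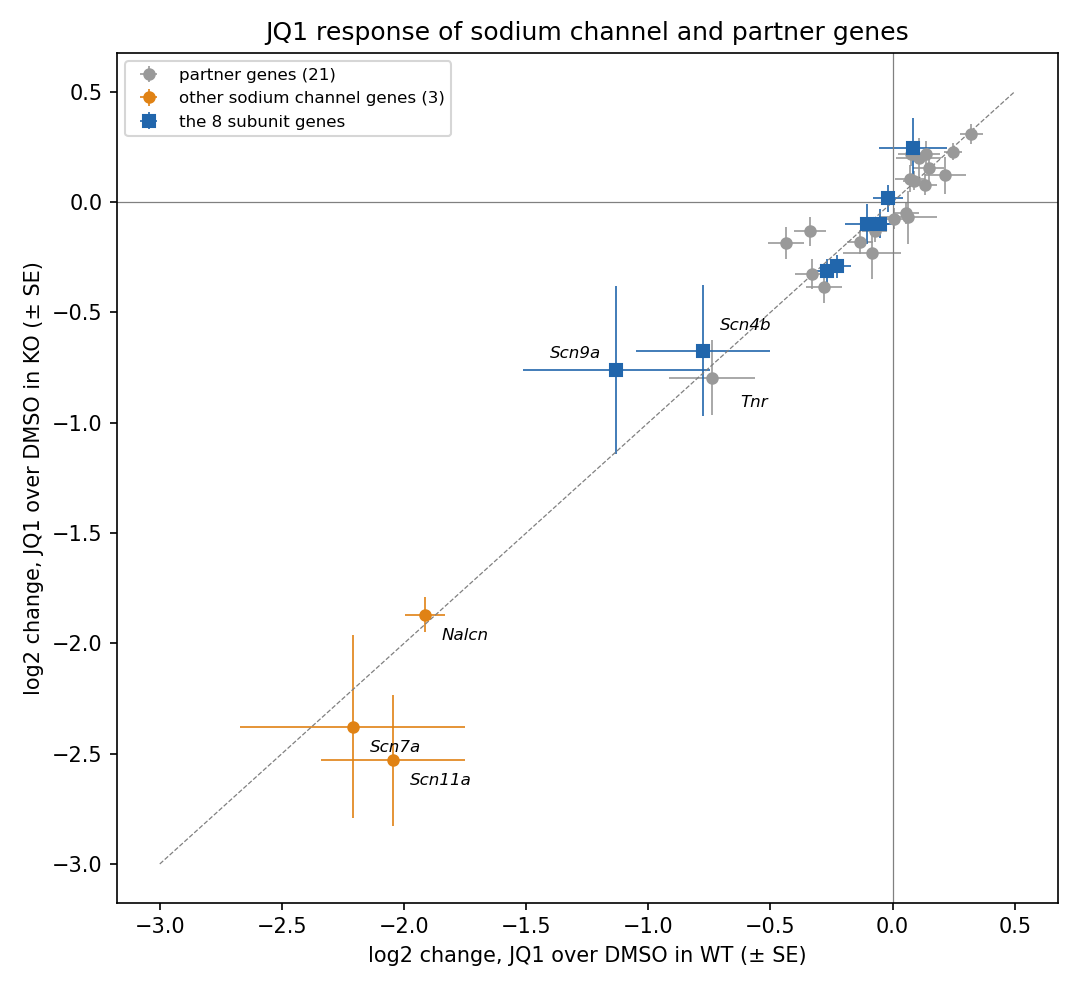
Log2 change with JQ1 over DMSO in KO neurons (vertical) against WT neurons (horizontal), with standard errors, for the 8 subunit genes, 3 other sodium channel genes and 21 partner genes. Nalcn, Scn7a and Scn11a lie between -1.87 and -2.53 on both axes, the subunit genes other than Scn9a and Scn4b lie between -0.31 and 0.25, and the dashed line marks equal changes.

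Genes of proteins that anchor, bind or modify sodium channels formed a list of 23, of which 21 were tested. Between genotypes 6 were higher in KO and 0 lower in DMSO, and 4 were higher and 0 lower in JQ1, beside 7.21% of all genes higher and 7.76% lower in DMSO and 4.85% higher and 4.13% lower in JQ1. Prkaca, a catalytic subunit of protein kinase A, which phosphorylates sodium channels, had 211.3, 212.3 and 206.1 CPM in KO neurons and 175.6, 175.5 and 177.1 CPM in WT neurons in DMSO. Its KO and WT libraries stood clearly apart (log2 0.25, SE 0.0372, adjusted p = 0.00138), where 37.6% of all genes had groups without overlap. Calm3, a calmodulin gene (0.31, adjusted p = 0.00253), Mapk8ip2, a scaffold protein that binds fibroblast growth factor homologous factors (0.28, adjusted p = 0.00281), and Nfasc, the neurofascin of axon initial segments and nodes (0.35, adjusted p = 0.0139), were also higher in KO. In JQ1 the called genes were Prkaca (0.23, adjusted p = 0.00284), Fgf11, a fibroblast growth factor homologous factor (0.30, adjusted p = 0.0147), Mapk8ip2 (0.20, adjusted p = 0.0195) and Calm3 (0.20, adjusted p = 0.0267). Median log2 changes of the list were 0.09 in DMSO and 0.10 in JQ1, beside -0.01 and -0.00 over all genes. Without the 2 KO libraries numbered 3, the counts were 8 higher in DMSO and 7 higher in JQ1, with 0 lower in each. In DMSO 3 were higher without replicate 1 or 2 of WT, and in JQ1 1 was higher without replicate 1 of KO or of WT and 2 without replicate 2 of either.

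With JQ1 the partner genes moved in both directions, 4 higher and 6 lower in KO, beside 27.7% of all genes higher and 29.4% lower, and 4 higher and 5 lower in WT, beside 25.9% higher and 29.3% lower. Csnk2a1, a catalytic subunit of the casein kinase that promotes ankyrin binding, had 286.4, 292.5 and 313.9 CPM in JQ1 and 242.3, 237.0 and 240.8 CPM in DMSO in KO neurons (log2 0.31, adjusted p = 5.07e-05). In WT neurons it had 309.3, 329.1 and 308.1 CPM in JQ1 and 252.4, 254.1 and 250.6 CPM in DMSO (log2 0.32, adjusted p = 3.89e-05). Both genotypes thus showed 2 separate groups of libraries, with JQ1 the higher, where 60.7% of all genes in KO and 62.6% in WT had groups without overlap. Prkaca rose by 0.23 in KO (adjusted p = 0.000123) and by 0.25 in WT (adjusted p = 6.84e-05). Cntn2, an axonal adhesion molecule, fell in KO (-0.38, adjusted p = 0.000412) and in WT (-0.28, adjusted p = 0.00468). Fgf13, a fibroblast growth factor homologous factor, fell in KO (-0.33, adjusted p = 0.000951) and in WT (-0.33, adjusted p = 0.000893). Fgf14, a fibroblast growth factor homologous factor of the axon initial segment, fell in KO (-0.19, adjusted p = 0.0384) and in WT (-0.44, adjusted p = 0.000174). Fgf11 fell in WT (-0.34, adjusted p = 0.000672) and was -0.13 in KO (adjusted p = 0.0942). The 4 higher in WT became 2 without replicate 1 or 2 of WT in DMSO, and the 6 lower in KO became 3 without replicate 2 of KO in DMSO. Median log2 changes of the list were -0.05 in KO and 0.06 in WT, beside 0.00 and -0.00 over all genes. No partner gene was called for the difference of responses.

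The genes whose pattern over the 12 libraries was most like that of each subunit gene were sought among 11373 tested genes of at least 3 CPM on average. The measure was the root mean square difference of centred log2 values, after adding 0.5 to each CPM. Nearest to Scn2b were Acot7 (0.0551), Sema4f (0.0594) and Tmem97 (0.0622). Nearest to Scn3a were Kazn (0.0382), Ttc30b (0.0438) and Nupl2 (0.0549), and nearest to Scn8a were Kif21b (0.0428), Pde10a (0.0516) and Prdm11 (0.054). Scn2a1 was closest to Anapc1 (0.0367), Mtmr9 (0.0416) and Dclk1 (0.0416), and Scn3b to B4galt6 (0.0424), Lsm11 (0.0428) and Fam76a (0.0438). Scn2a1 and Scn3b themselves varied little over the libraries (SD of log2 values 0.0887 and 0.0716). Scn1a (SD 0.195, with replicate 1 of KO in JQ1 above all other libraries) was closest to Klhl4 (0.0880), Osbpl3 (0.102) and Pcdh20 (0.102). For Scn9a the nearest were A730017C20Rik, Cenpv and 2210008F06Rik and for Scn4b Col25a1, Lynx1 and Esd, with the counting error of a few reads in those 2 patterns. The added 0.5 also shrinks changes at levels as low as theirs, so these neighbours do not share their size of change. JQ1 over DMSO in WT was -0.50, -0.37 and -0.45 for the neighbours of Scn9a (itself -1.13). It was -0.25, -0.25 and -0.34 for those of Scn4b (itself -0.78). These are descriptions over shared libraries and carry no test.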

How the data were processed

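RNA of cultured cortical neurons was purified with RNeasy columns and, after TruSeq library preparation, read on a NextSeq500 in single reads of 75 bp, per the labels' protocols. TopHat2 2.1.0, SAMtools 0.1.19, HTSeq 0.6.1, DESeq2, DESeq and the mm9 build are named, per the submitters' processing notes. Neither strandedness nor counting mode is given in those sources. The authors deposited raw counts per Ensembl gene for 12 libraries. Their DESeq2 table of KO against WT holds, per the file headers, a mean signal (baseMean), a log2 fold change with its standard error, a test score and p-values, and was only quoted.

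Counts were fitted in R 4.3.3 with edgeR 4.0.16 (TMM scaling, filterByExpr with a minimum count of 10 by group, 15433 of 37310 genes kept, 92 spike-in entries left out of library sizes, 1 mean per group over 12 libraries, 8 residual degrees of freedom, biological coefficient of variation 6.69%). Quasi-likelihood F tests were two-sided, with Benjamini-Hochberg adjustment over 15433 genes and a threshold of 0.05. Standard errors and 95% intervals come from the quasi-likelihood statistic. RPKM values use GENCODE M21 exon lengths of GRCm38, whereas the counts were made on mm9. The fit was also run on simulated data, whose outcome is not given here and from which no support is drawn. Alternatives were edgeR's RLE, upper-quartile and spike-in scaling, no filter, DESeq2 1.42.0, fits of the compared groups alone, replicate blocks and leaving out libraries.

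Replicate numbers were taken to pair the libraries of JQ1 and DMSO. Deviations from the group means correlated by 0.108 to 0.224 in WT and by 0.523 to 0.53 in KO for all pairs of the same number. Between genotypes not all pairs correlated positively (-0.315 to 0.00790 in DMSO, -0.0607 to 0.246 in JQ1), and the numbers were not taken as pairs. The main fit used no pairing, which entered only the alternative fits with a replicate block. Libraries of 1 group varied beyond counting error (chi-square over its degrees of freedom 4.67 to 37.8).

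The 8 genes, the partner and marker lists and the tests were chosen with earlier results of these data known. A few genes of these lists are not reported here and are left out of the counts. Values are given for all 8 genes. Of the partner list, up to 4 called genes of smallest adjusted p per comparison are named, and for each subunit gene the 3 genes of most like pattern.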

Additional observations from a re-analysis of the deposited data

How the results depend on the processing

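Scn2b kept its direction and its call in all 4 comparisons with every library left out in turn and under every alternative other than spike-in scaling, and so did Scn3a with JQ1 in both genotypes. Scaling on the spike-in sequences called 0 of the 9 entries higher and 7 lower for KO over WT in DMSO. Of all 15433 genes, 4 were higher and 11990 lower there. For KO over WT in JQ1 it called 0 entries higher and 0 lower, beside 5 and 18 of all genes. For JQ1 over DMSO in WT it called 0 entries higher and 6 lower, beside 40 and 5814 of all genes. Both entries named Scn8a gained a call there (-0.72, adjusted p = 0.0497 for the entry with more counts). For JQ1 over DMSO in KO spike-in scaling called 0 entries higher and 0 lower, beside 206 and 1314 of all genes. Under this scaling the log2 change for KO over WT in DMSO was -0.73 for Scn2a1, -0.64 for Scn8a and -0.46 for Scn2b. In JQ1 it was -0.0021 for Scn1a, -0.11 for Scn2a1 and -0.21 for Scn9a. Scn1a was -0.55 for JQ1 over DMSO in WT. The difference of responses of Scn2b was 0.64 (adjusted p = 0.221), beside an all-gene median of 0.70. The cause was not tested. The count of 1 entry lower for KO over WT in JQ1, Scn3a, was 0 with edgeR's RLE scaling, with no filter on low counts and with the JQ1 groups fitted alone. In that order 594 of 15433, 761 of 25048 and 267 of 14458 tested genes were lower, against 637 of 15433 with TMM scaling. DESeq2 called 2 entries lower with JQ1 in WT in place of 4, beside 4231 of all 15433 genes in place of 4517. Upper-quartile scaling called 4 lower with JQ1 in KO in place of 2, beside 5346 of all genes in place of 4538.

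Scn3b, with changes near 0, turned sign for KO over WT in JQ1 with RLE scaling (0.0021), no filter (0.0059), the JQ1 groups alone (0.0048) and DESeq2 (0.0021). For JQ1 over DMSO in KO it did so with upper-quartile scaling (-0.055) and without both KO libraries numbered 3 (-0.018).

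With a library left out in turn, entries lower numbered 0 to 1 for KO over WT in JQ1 and 2 to 4 for JQ1 over DMSO in WT (2 without replicate 1 or 2 of WT in JQ1 or replicate 3 of WT in DMSO), and entries higher numbered 0 to 1 for JQ1 over DMSO in KO. For KO over WT in DMSO, Scn1a ran from -0.048 to 0.038, Scn2a1 from -0.0014 to 0.15 and Scn3b from -0.067 to 0.015. In JQ1, Scn1a ran from -0.12 to 0.30, Scn2a1 from -0.033 to 0.051, Scn9a from -0.23 to 0.40 and Scn3b from -0.052 to 0.069. For JQ1 over DMSO, Scn3b ran from -0.050 to 0.014 in WT and from -0.035 to 0.091 in KO, and Scn1a from -0.0022 to 0.41 in KO. The ratio of Scn9a to Scn2a1 gave a difference of responses of -0.27 to 0.81 (log2).

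The replicate block that pairs JQ1 and DMSO libraries of the same genotype and number called 1 entry higher with JQ1 in KO (Scn1a) and 3 lower in WT in place of 4 (Scn4b lost), and changed no other call of the 8 genes. Of all 15433 genes, that block called 4787 higher with JQ1 in KO and 4846 lower in WT. Of the partner genes, spike-in scaling called 0 higher and 11 lower for KO over WT in DMSO, beside 4 and 11990 of all genes. It called 0 of them higher in the other comparisons. Upper-quartile scaling called 2 partner genes higher with JQ1 in WT (2938 of all genes) and 10 lower in KO (5346 of all genes). The block by number called 1 partner gene lower for KO over WT in DMSO (1503 of all genes). The replicate block by number, whose numbers were not taken to pair the genotypes, called 1 entry higher and 0 lower for KO over WT in DMSO. In JQ1 it called 1 higher and 1 lower. Of all genes, it called 1286 higher and 1503 lower in DMSO, and 966 higher and 987 lower in JQ1. The depth of Scn9a and Scn4b, at 5 to 32 counts a library, limits what can be said of them.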
